A study of Mus musculus with 9 samples.

Results

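Rag1, Rag2 and Dntt, the lymphoid genes that cut and diversify antigen receptor genes, were followed with every probe annotated to them on a mouse whole-genome bead array. Each gene has 1 such probe, so the set is 3 of the 45281 probes of the Illumina MouseWG-6 v2.0 array, and all 3 passed the filter that kept 19490 probes, covering 10072 named genes, for being detected on at least 3 of the 9 arrays. The arrays cover 3 groups of 3 samples on the C57BL/6 strain background: wild-type thymus, thymus of mice labelled as carrying an Lmo2 transgene, and cell lines from T-cell leukaemias of CD2-Lmo2 transgenic mice, numbered 3, 175 and 261. Lmo2 is a transcriptional adaptor of early blood cells that is switched off during T-cell development, and CD2 regulatory sequence directs a transgene to T-lineage cells. The labels give no age, no treatment and no sort of the thymus cells, do not say whether a thymus sample is 1 animal, and do not say whether a line is 1 clone. The p-values below therefore measure the spread between these samples, which for thymus may be partly technical and for the lines is a spread between differently numbered leukaemias.

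V(D)J recombination assembles the T-cell receptor and immunoglobulin genes of a lymphocyte from separate gene segments. RAG1 and RAG2 form the enzyme that recognises the signal sequences beside the segments and cuts the DNA, RAG1 carrying the catalytic site and RAG2 being the required partner. Terminal deoxynucleotidyl transferase, the product of Dntt, adds bases without a template at the open ends, and the non-homologous end-joining proteins seal them. In the thymus the Rag genes are switched on in double-negative cells (lacking CD4 and CD8), again in double-positive cells, and off in mature T cells.

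The start regions of the 3 genes are shown because the genes are transcribed in the same cells while the results below differ between them, and because Rag1 and Rag2 lie next to each other in the genome. The sequences are RefSeq's on build GRCm38.p6, each 300 bases from 250 before the annotated start to the first 50 bases of the gene, 5' to 3' on the gene's own strand. Rag1 is at chr2:101649483-101649782 on the minus strand, Rag2 at chr2:101624462-101624761 on the plus strand and Dntt at chr19:41029025-41029324 on the plus strand. Capitals mark matches on either strand to CAGGTG (an E-box bound by E proteins), CCAAT (the CCAAT box), TGTGGT (a RUNX core) and TGGGA (an Ikaros core), searched for after the sequences had been seen.
Rag1: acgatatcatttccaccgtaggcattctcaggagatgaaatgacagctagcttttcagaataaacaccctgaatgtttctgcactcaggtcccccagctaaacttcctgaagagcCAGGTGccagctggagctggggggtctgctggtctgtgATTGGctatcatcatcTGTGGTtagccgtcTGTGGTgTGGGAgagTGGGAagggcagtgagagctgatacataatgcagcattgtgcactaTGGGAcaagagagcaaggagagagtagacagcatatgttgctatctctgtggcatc
Rag2: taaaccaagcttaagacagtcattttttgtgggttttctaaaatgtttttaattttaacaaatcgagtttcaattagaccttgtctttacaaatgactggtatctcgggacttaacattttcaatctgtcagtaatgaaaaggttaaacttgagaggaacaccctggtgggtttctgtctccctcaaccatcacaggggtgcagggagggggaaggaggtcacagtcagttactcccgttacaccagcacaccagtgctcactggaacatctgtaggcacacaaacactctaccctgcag
Dntt: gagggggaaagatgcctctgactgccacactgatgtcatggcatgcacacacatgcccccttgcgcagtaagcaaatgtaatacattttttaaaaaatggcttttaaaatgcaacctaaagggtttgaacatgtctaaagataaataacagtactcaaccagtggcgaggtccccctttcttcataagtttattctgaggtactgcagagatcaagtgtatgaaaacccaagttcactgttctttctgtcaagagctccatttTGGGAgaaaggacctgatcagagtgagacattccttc

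The Rag1 window holds CAGGTG at position -135, the CCAAT box in reverse (ATTGG) at -97, TGTGGT at -81 and -67, and TGGGA at -60, -52 and -6, where -1 is the last base before the annotated start. The Rag2 window holds no match to these letters, and the Dntt window holds TGGGA at position 14 of the gene. No match overlaps another. Of 32851 mouse gene starts in the same table, 20.2% have CAGGTG, 37.4% CCAAT, 16.8% TGTGGT and 61.6% TGGGA in a window of the same length. A match is a description of the letters and not evidence of binding.

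All values below are log2 intensities after background correction and quantile normalization, unless called raw, and a probe counts as detected on an array where its deposited detection p-value is under 0.05. Levels of different probes are not compared with each other. Median raw intensity per array was 118.5 to 161.2, between 35.0% and 43.0% of probes were detected per array, and the number of arrays limits the precision of every value. Within groups, arrays correlated at 0.971 to 0.990 (wild type), 0.923 to 0.964 (labelled transgenic) and 0.920 to 0.947 (lines) over the kept probes. The Lmo2 probe did not follow the labels: its mean was 8.06 in wild-type thymus, 6.20 in labelled transgenic thymus and 4.53 in the lines, where it was not detected on any array. The difference between the thymus groups was -1.86 ± 0.37 (SE, limma adjusted p = 0.0531), so the label transgenic is used here as a label only, and no source used here says whether this probe reads the transgene's RNA. Xist was detected on labelled transgenic arrays 1 and 2 (12.66 and 11.37) and, at 5.47, in line 175, while the Y-linked Eif2s3y was detected on the 3 wild-type arrays, on labelled transgenic array 3 and in line 3.

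Rag1 was high in wild-type thymus, lower in every labelled transgenic sample, and split among the lines. Its raw intensities in wild-type samples 1 to 3 were 1448, 1652 and 1510, and in labelled transgenic samples 1 to 3 they were 589.2, 1063 and 604.8. In line 3 the raw intensity was 125.8, close to that array's median of 121.9, with a detection p-value of 0.158. Lines 175 and 261 gave 2379 and 3006, above every thymus sample. On the log2 scale the wild-type values were 10.54, 10.90 and 10.73, the labelled transgenic values 8.95, 9.49 and 9.10, and lines 3, 175 and 261 were at 4.88 (not detected), 10.97 and 11.23. The thymus groups did not overlap, while the lines fell on either side of both thymus groups.

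Rag2 was read close to background in thymus. The raw intensities were 176.3, 141.5 and 170.2 in wild type, 155.9, 139.2 and 140.4 in the labelled transgenic samples, and 111.2, 213.4 and 275.0 in lines 3, 175 and 261. The log2 values were 5.58, 5.36 and 5.20 in wild type, where each array detected the probe. They were 4.63, 4.90 and 4.46 in the labelled transgenic samples, where no array did (detection p-values 0.333, 0.104 and 0.700). Line 3 was at 4.49 and not detected (detection p-value 0.649), and lines 175 and 261 were at 7.12 and 7.45, the highest of the 9 arrays.

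Dntt was high in all 6 thymus samples and lower in all 3 lines. Its raw intensities were 3270, 4209 and 3592 in wild type, 4452, 7084 and 4631 in the labelled transgenic samples, and 120.6, 2157 and 1896 in lines 3, 175 and 261. The log2 values were 11.90, 12.38 and 12.13 in wild type, 12.36, 12.64 and 12.36 in the labelled transgenic samples, and 4.72 (not detected, detection p-value 0.270), 10.83 and 10.56 in the lines. The thymus groups overlapped, and each line was below each thymus sample.

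**Figure D1:**
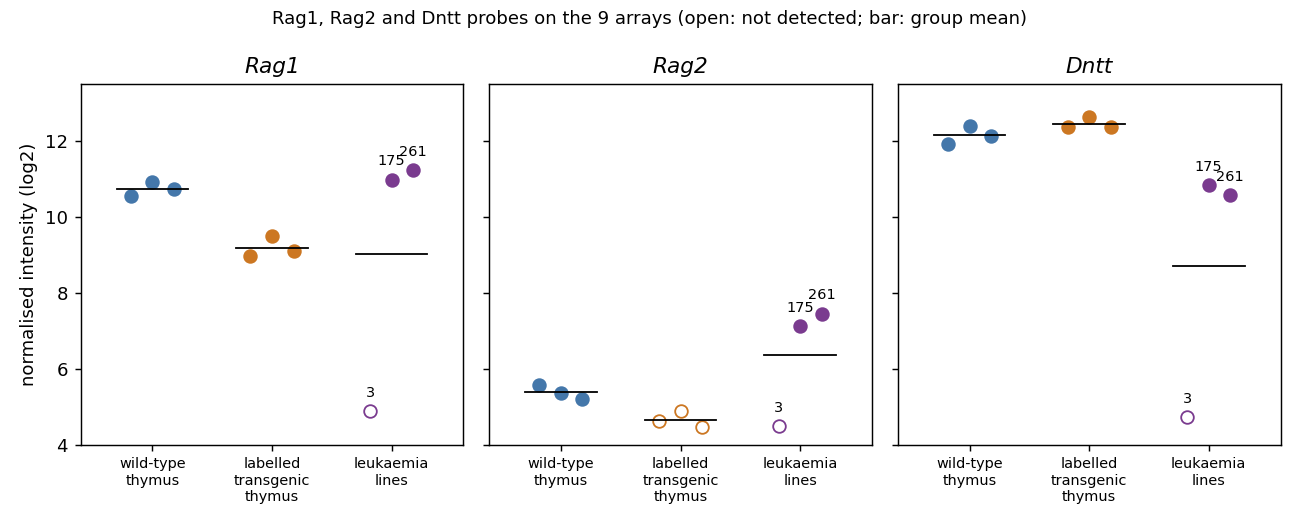
Normalised log2 intensity of the Rag1, Rag2 and Dntt probes (y axis) on each array, with 3 points per group (x axis) and a bar at the group mean; open circles are arrays on which the probe was not detected and numbers name the lines. Line 3 lies at 4.88, 4.49 and 4.72 for the 3 genes, while lines 175 and 261 lie at 10.97 and 11.23 for Rag1 and above all thymus samples for Rag2.

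Non-detection by a probe is not absence of a transcript, since the probes of Xrcc5 and Nbn, repair genes that most cells use, were not detected on any of the 9 arrays and that of Hmgb1 on only 1. The order of the group means was wild type 10.72 ± 0.18 (SD, n = 3), labelled transgenic 9.18 ± 0.28 and lines 9.03 ± 3.59 for Rag1. For Rag2 it was lines 6.35 ± 1.63, wild type 5.38 ± 0.19 and labelled transgenic 4.66 ± 0.22. For Dntt it was labelled transgenic 12.45 ± 0.16, wild type 12.14 ± 0.24 and lines 8.70 ± 3.45. In all 3 genes line 3 was the lowest of the lines, and the labelled transgenic and line means of Rag1, neighbours in its order, differed by far less than the spread of the lines.

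The first comparison asked whether the recombination genes differ between the thymus groups. Rag1 fell by 1.54 ± 0.22 on the log2 scale (SE, n = 3 against 3, 95% interval -2.05 to -1.03), a 2.91-fold lower level in labelled transgenic thymus, with a limma adjusted p = 0.0145 over 19490 probes. Rag2 differed by -0.72 ± 0.21 (-1.20 to -0.23, adjusted p = 0.157). As no labelled transgenic array detected Rag2, its difference is also given as a bound, at least 1.25-fold lower than in wild type. Such a bound sets the measured mean of the detected group against the lowest signal among detected probes of each array of the other group. A bound carries no error term. It holds only for the background correction used here and its offset of 16, a constant added before the log2 step. The Rag2 difference did not pass the test. Dntt differed by 0.31 ± 0.20 (-0.17 to 0.79, adjusted p = 0.631), an interval that leaves room for a small change in either direction. Thus 1 of the 3 genes passed the test, against 2.81% of all kept probes, and 2 of the 3 had thymus groups without overlap, as 19.7% of kept probes had. The Rag1 call was lost when wild-type array 1, 2 or 3 was left out (adjusted p = 0.0541, 0.0957 and 0.0915), with all 9 arrays in 1 fit (adjusted p = 0.843), and when replicate numbers entered as a block (adjusted p = 0.0523), at values of -1.63, -1.45, -1.54, -1.54 and -1.54. The fit of all 9 arrays takes the spread of the lines into its error, and its SE was 1.38. Within bulk thymus RNA, fewer cells that express a gene and less RNA per cell cannot be told apart. With labelled transgenic array 3 alone, the array that matched wild type in Xist and Eif2s3y, against the 3 wild-type arrays, a comparison added after the data were seen, the difference was -1.63 for Rag1, -0.92 for Rag2 and 0.22 for Dntt. These are values of 1 array, given without a test.

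The lines were then set against each thymus group; these comparisons share the same line arrays, and each thymus group also enters the comparison above. Against wild type, the log2 difference was -1.70 ± 1.57 for Rag1 (95% interval -5.39 to 2.00, limma adjusted p = 0.442), 0.97 ± 0.73 for Rag2 (-0.75 to 2.69, 0.344) and -3.43 ± 1.51 for Dntt (-6.99 to 0.12, 0.13). None of the 3 passed limma's test after adjustment, and 0 had an unadjusted p under 0.05, against 27.6% of all kept probes with an adjusted p under 0.05. Only Dntt had groups that did not overlap, which 47.5% of kept probes also had. Against labelled transgenic thymus the differences were -0.16 ± 1.59 for Rag1 (-3.93 to 3.61, adjusted p = 0.953), 1.69 ± 0.75 for Rag2 (-0.07 to 3.46, 0.156) and -3.74 ± 1.53 for Dntt (-7.36 to -0.13, 0.132). Here too 0 of 3 passed, 1 (Dntt) had an unadjusted p under 0.05, 16.3% of kept probes passed, and the groups of Dntt alone did not overlap, as for 42.5% of kept probes. Rag2 was detected in 2 of 3 lines and on no labelled transgenic array, and the groups overlapped through line 3.

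Line 3 decided these values. Leaving out each array in turn had been planned for all arrays, and without line 3 the lines against wild type gave 0.38 ± 0.22 for Rag1 (limma adjusted p = 0.238), the opposite direction. Rag2 then rose by 1.91 ± 0.23 (0.00173) and Dntt fell by 1.44 ± 0.24 (0.0059). Against labelled transgenic thymus, without line 3, Rag1 rose by 1.92 ± 0.28 (0.0137), Rag2 rose by 2.63 ± 0.27 (0.00504) and Dntt fell by 1.75 ± 0.26 (0.0135). In lines 175 and 261, then, Rag1 was above the labelled transgenic level, Rag2 was above and Dntt was below both thymus groups. These fits rest on lines 175 and 261 alone, after the line furthest from them was left out. No labelled transgenic array detected Rag2, so its rise of 2.63 is measured from background.

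**Figure D2:**
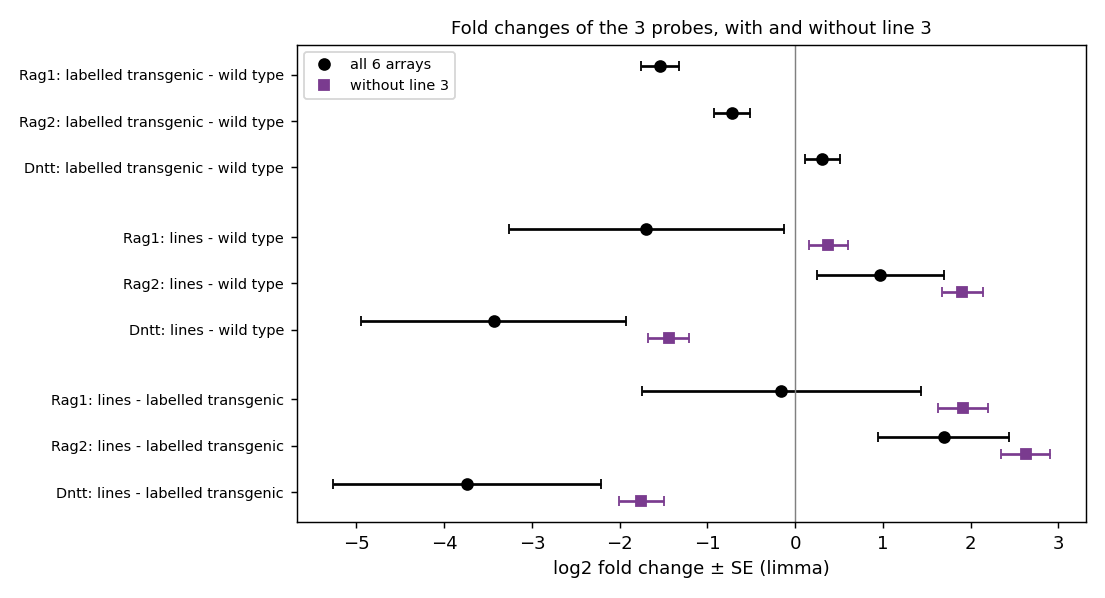
Log2 fold change with its standard error (x axis) of the 3 probes in the 3 comparisons (y axis), with all 6 arrays (black circles) and with line 3 left out (purple squares). The error of the lines' comparisons shrinks from between 0.73 and 1.59 to between 0.22 and 0.28 when line 3 is left out, and Rag1 moves from -1.70 to 0.38 against wild type.

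Each line has 1 array, so the differences of single lines from the wild-type mean have no replicate check and no test. In line 3, Rag1 was at least 42.4-fold lower than the wild-type mean (measured difference -5.84), Dntt at least 113-fold lower (-7.42) and Rag2 at least 1.05-fold lower (-0.90). A difference as low as that of Rag1 was seen in 0.334% of kept probes in that line, of Dntt in 0.077% and of Rag2 in 15.5%. Of all kept probes, 13.9% were at least 1 log2 unit below the wild-type mean in line 3 and 12.7% at least 1 unit above it. The bounds of line 3 hold for the offset of 16 only. With an offset of 50 the measured differences of Rag1 and Dntt were -4.76 and -6.23, smaller than their bounds.

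Line 175 had Rag1 1.18-fold above the wild-type mean (0.24), Rag2 3.35-fold above (1.74) and Dntt 2.47-fold below (-1.31). In line 261 Rag1 was 1.42-fold above (0.51), Rag2 4.20-fold above (2.07) and Dntt 2.99-fold below (-1.58). Both lines thus showed the same order of the 3 differences. In line 175, 14.2% of kept probes were at least 1 log2 unit above and 14.9% at least 1 unit below the wild-type mean, and in line 261 the shares were 13.1% and 13.9%. Rises as large as that of Rag2 were seen in 3.59% of kept probes in line 175 and in 2.24% in line 261, and falls as large as that of Dntt in 11.0% and 8.07%. The 2 lines differed from each other (261 minus 175) by 0.26 for Rag1, 0.33 for Rag2 and -0.27 for Dntt.

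Set against line 3 directly, line 175 had at least 50.2-fold more Rag1 signal, at least 3.50-fold more Rag2 and at least 45.7-fold more Dntt. For line 261 the bounds were 60.2-fold, 4.39-fold and 37.9-fold. Rag1 and Dntt were among 287 probes not detected in line 3 but detected on the other 8 arrays, which is 2.39% of the 12003 probes detected on those 8. The corresponding share was 2.33% for line 175 (280 of 11996) and 1.83% for line 261 (219 of 11935), so the share was close to that of line 175.

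The samples' stage markers were read beside these values. The T-lineage genes Cd3d, Cd3e and Cd3g (CD3 chains of the T-cell receptor complex), Thy1 and Cd2 were detected, 5 of 5, on all 9 arrays, with a summed level of 51100 to 60200 in wild type, 43500 to 57300 in labelled transgenic thymus and 29700, 48000 and 44100 in lines 3, 175 and 261. Of the 7 genes of double-negative and pre-T-cell-receptor stages, 6 were detected on each wild-type array, 5 or 6 in labelled transgenic thymus, 5 in line 175, 4 in line 261 and 0 in line 3. The summed level of that list was 6020 to 7160 in wild type, 7480 to 14800 in labelled transgenic thymus, 185 in line 3, 5760 in line 175 and 5080 in line 261. Whether the state of these cells has a part in the low Rag1, Rag2 and Dntt of line 3 was not tested.

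Within that list, Notch1, the receptor that commits progenitors to the T lineage, was at 11.79, 11.87 and 12.17 in wild type and at 12.42, 11.81 and 11.98 in labelled transgenic thymus. It was at 4.95 (not detected) in line 3, 11.17 in line 175 and 11.02 in line 261, the same split of the lines as Rag1 and Dntt. Of the other genes of the list, named after their values were seen, the Notch target Hes1 was at 4.55 (not detected), 8.44 and 9.59 in lines 3, 175 and 261, and Dtx1 at 4.79 (not detected), 9.67 and 9.55. Il2ra was at 4.56 and 4.53 (not detected) in lines 3 and 261 and at 6.46 in line 175, and its other probe read 4.54, 4.62 and 4.58 in lines 3, 175 and 261, so it did not follow that split. Ptcra, which encodes the surrogate chain of the pre-T-cell receptor, was at 8.60, 8.10 and 8.29 in wild type and at 4.93 (not detected), 6.49 and 6.27 in labelled transgenic thymus. In line 3 it was at 4.93 (not detected), and in lines 175 and 261 at 11.08 and 10.46. Ptcra fell in labelled transgenic thymus (-2.43 ± 0.42, limma adjusted p = 0.0294), beside the lower Rag1 there. Kit and Il2ra, receptors of early thymocytes, fell in the lines against wild type, Kit at least 21.3-fold (adjusted p = 3.1e-05) and Il2ra by 4.35 ± 0.52 on the log2 scale (0.00151). The median of the 6 measured genes of the list was 0.62 in labelled transgenic against wild-type thymus (1 fell, 0 rose), -2.16 in the lines against wild type (2 fell) and -2.56 in the lines against labelled transgenic thymus (2 fell). Of all 10072 genes, 1.71%, 12.9% and 8.46% fell in these 3 comparisons, and 1.71%, 12.7% and 7.15% rose. The same shares stand beside the counts of the next lists.

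**Figure D3:**
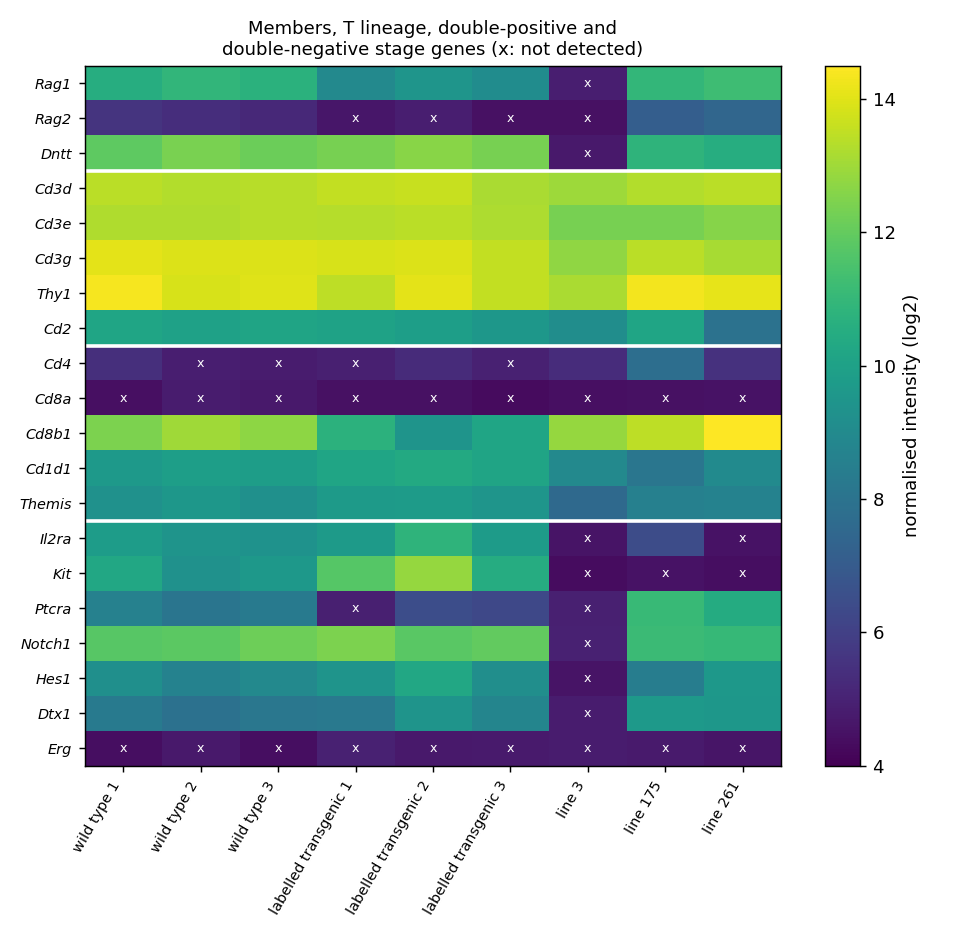
Normalised log2 intensity (colour) of Rag1, Rag2, Dntt and the fixed T-lineage, double-positive and double-negative stage genes (rows) on the 9 arrays (columns), with a cross where the probe was not detected. In line 3 none of the 7 genes from Il2ra to Erg was detected, whereas Cd3d, Cd3e, Cd3g, Thy1 and Cd2 were detected on every array.

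Of the double-positive genes, the Cd8a probe was not detected on any array and the Cd4 probe, at 4.80 to 7.78, on 5 of 9, so these defining markers do not place the samples. Cd8b1, a CD8 chain, fell in labelled transgenic thymus by its highest probe (-2.61 ± 0.35, limma adjusted p = 0.0117), with 0.24 and -3.21 at its other probes. It was the only 1 of 4 measured genes to pass there (median 0.16). In the lines against labelled transgenic thymus its highest probe rose (3.47, 0.0078), with 4.49 (0.00277) and -1.15 (0.113) at the other probes, and the last of these fell against wild type (-0.91, 0.0399). Of the 4 genes, 2 fell in the lines against wild type (Cd1d1, -1.11, and Themis, -1.10; median -0.12), and against labelled transgenic thymus 1 rose and 2 fell (median -0.13). Of the 5 measured T-lineage genes, 0 passed in the thymus comparison by limma and 0 had an unadjusted p under 0.05 (median -0.21), 2 fell in the lines against wild type (Cd3e, -0.85, and Cd3g, -0.89; median -0.85) and 1 fell against labelled transgenic thymus (Cd3e, -0.88; median -0.68).

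B-lineage cells also express Rag1, Rag2 and Dntt, and their markers were read for that reason. Of 7 such genes on the array, 5 or 6 were detected per wild-type array, 4 to 6 per labelled transgenic array and 1, 1 and 3 in lines 3, 175 and 261, with summed levels of 1580 to 2480, 495 to 1460 and 197 to 258. Cd79b, a chain of the B-cell receptor complex, was at 10.48, 10.38 and 11.08 in wild type, at 10.22, 9.87 and 8.19 in labelled transgenic thymus and not detected in any line. Pax5, which defines the B lineage, was detected on 1 of 9 arrays, wild type 3, at 5.21. The detected B-lineage genes of the lines were Ebf1 in all 3 (5.52, 5.66 and 5.80 in lines 3, 175 and 261) and Vpreb1 (5.67) and Blnk (5.60) in line 261, and the part of B-lineage RNA in the Rag values was not tested. Between the thymus groups 0 of 6 measured B-lineage genes passed limma's test and 1 had an unadjusted p under 0.05 (median -0.20); in the lines 2 fell against wild type (median -0.81) and 1 against labelled transgenic thymus (median -0.45). Markers of other cells of the organ also fell in some of the 3 comparisons, and none rose. In the order given, 2, 4 and 3 of 4 measured natural killer genes and 1, 4 and 2 of 4 myeloid genes fell. So did 1, 5 and 3 of 5 class II genes of the major histocompatibility complex and 0, 3 and 3 of 4 mature T-cell genes. Of all 10072 genes, 1.71%, 12.9% and 8.46% fell in these comparisons. Summed class II levels were 14500 to 17200 in wild type, 1910 to 8490 in labelled transgenic thymus and 135 to 606 in the lines, and the part of such cells in the thymus values was not tested.

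The partners of RAG1 and RAG2 in the reaction were read against all genes. Over all 10072 genes, 1.71% rose and 1.71% fell in labelled transgenic against wild-type thymus, with a median of 0.00. In the lines, 12.7% rose and 12.9% fell against wild type (median 0.08), and 7.15% rose and 8.46% fell against labelled transgenic thymus (median 0.06). Hmgb2, which bends the DNA for RAG, was at 11.19 to 12.98 on all arrays and did not pass in any of the 3 comparisons (-0.47, -0.30 and 0.18; 0 with an unadjusted p under 0.05 in limma).

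Of 12 end-joining genes, 9 were measured among the kept probes. In the thymus comparison 0 passed, with 0 at an unadjusted p under 0.05 in limma (median 0.21), and in the lines 1 rose against wild type (median 0.14) and 0 passed against labelled transgenic thymus, again with 0 at an unadjusted p under 0.05 (median 0.19). The gene that rose was Nhej1, which encodes the ligase partner XLF (0.97 ± 0.26, adjusted p = 0.0327). These counts use the highest probe of each gene. Another probe of Aplf also rose in the lines against wild type (0.87, adjusted p = 0.0331), while its remaining probes (0.35 and 0.50) did not pass. Nhej1 was at 6.22, 6.46 and 6.03 in wild type and at 6.74, 7.46 and 7.43 in lines 3, 175 and 261, so the groups did not overlap. Lig4, the DNA ligase of the pathway, was at 7.52, 6.79 and 7.14 in wild type and at 8.11, 8.28 and 7.60 in the lines (0.84, adjusted p = 0.0604). Xrcc6, which encodes the end-binding protein Ku70, was at 13.56 to 14.16 on all 9 arrays, and Prkdc, the DNA-dependent kinase, at 6.32 to 7.45. Line 3, without detected Rag1, had values of 7.05 for Prkdc, 8.11 for Lig4 and 14.16 for Xrcc6, within or near those of the other lines. Poll, a polymerase that fills gaps at the ends, was at 8.52 in line 3, 7.01 in line 175 and 5.32 (not detected) in line 261.

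Of 10 genes that sense or signal breaks, 8 were measured, and 0 passed between the thymus groups, with 0 at an unadjusted p under 0.05 in limma (median 0.10). In the lines 2 fell against wild type (median -0.42) and 1 against labelled transgenic thymus (median -0.43). Atm, the kinase that answers RAG breaks, was at 10.71, 10.72 and 10.97 in wild type, 11.15, 10.98 and 10.80 in labelled transgenic thymus and 10.10, 9.55 and 9.78 in lines 3, 175 and 261. At this highest probe it fell by 0.99 ± 0.21 against wild type (adjusted p = 0.0161) and fell by 1.17 against labelled transgenic thymus (0.0233), and each line lay below each thymus sample. The other Atm probes differed by -0.71, -0.89 and -0.79 against wild type (limma adjusted p = 0.0606, 0.0214 and 0.0223). Against labelled transgenic thymus they differed by -1.01, -1.13 and -0.41 (0.0648, 0.0383 and 0.272). Trp53bp1, which protects broken ends from being cut back, fell by 0.75 ± 0.22 against wild type (0.0414) at its highest probe, with 0.46 and -0.35 at its other probes, neither past the test. The highest probes of Rad50 (0.37) and Rif1 (-0.47) did not pass against wild type. Another probe of Rad50 rose there (1.22, limma adjusted p = 0.0131). Of the other Rif1 probes, 1 fell (-1.36, 0.0169) and the last did not pass (0.80).

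**Figure D4:**
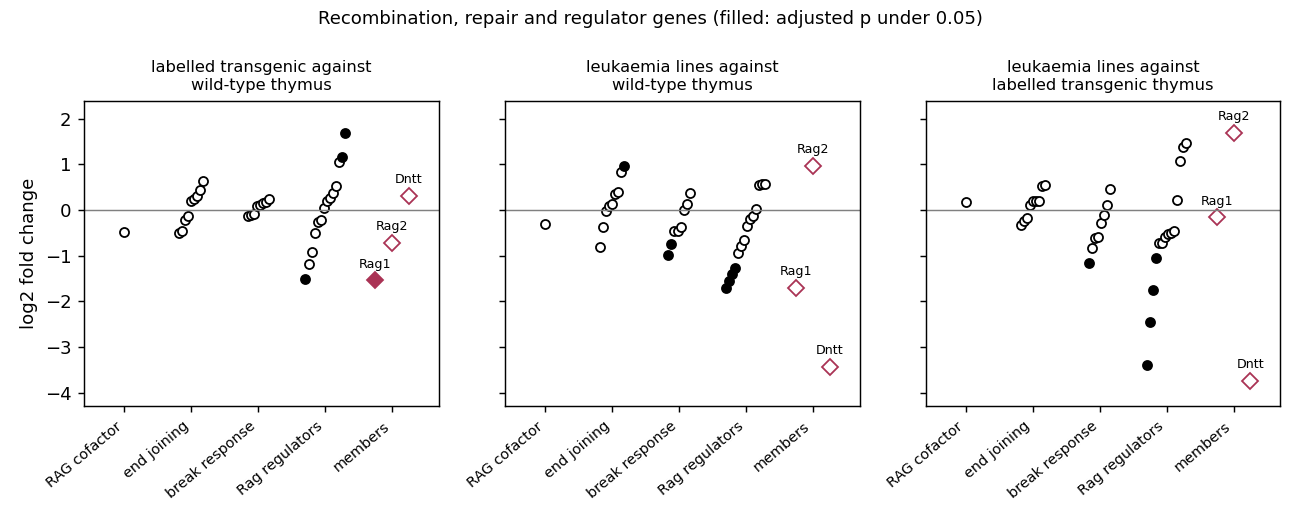
Log2 fold change (y axis) of each measured gene of the RAG cofactor, end-joining, break-response and Rag-regulator lists and of Rag1, Rag2 and Dntt (diamonds) in the 3 comparisons (panels), filled where the limma adjusted p is under 0.05. Only Nhej1, at 0.97 in the lines against wild type, is filled among the end-joining genes, and of the diamonds only Rag1, at -1.54 in the thymus comparison.

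Of 15 transcription factors and inhibitors of early lymphocytes, several of them known to act on the Rag genes, 14 were measured. In labelled transgenic thymus 2 rose and 1 fell (median 0.13), and in the lines 4 fell and 0 rose against each thymus group (medians -0.50 and -0.56). These counts use the highest probe of each gene. Another probe of Id2, an E-protein inhibitor, fell in labelled transgenic thymus (-1.69, limma adjusted p = 0.0257) and in the lines against wild type (-1.34, 0.0142). Against wild type, another probe of Tcf12 (-2.65, 0.000985) and of Ikzf1 (-2.12, 0.00152) fell in the lines, while their remaining probes did not pass. Foxo3, of the forkhead family whose member Foxo1 drives Rag transcription in mouse B cells, was at 6.07, 6.13 and 5.97 in wild type and at 7.02, 7.41 and 7.25 in labelled transgenic thymus (1.17 ± 0.19, limma adjusted p = 0.0234). Zfp608, reported in the mouse as a repressor of Rag transcription in thymocytes, was at 7.05, 6.58 and 6.48 in wild type and at 8.37, 8.93 and 7.86 in labelled transgenic thymus (1.68 ± 0.31, 0.0398), while its other probes, at 0.47 and 0.58, did not pass. Id3, an inhibitor of the E proteins that bind E-boxes, was at 8.14, 7.79 and 8.01 in wild type and at 6.80, 5.85 and 6.75 in labelled transgenic thymus (-1.51 ± 0.29, 0.0468). For the E proteins themselves, Tcf12 differed by 0.52 (0.324) and Tcf3 by -0.92 (0.667).

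In the lines, Zfp608 was at 4.50 and 4.57 (not detected) in lines 3 and 175 and at 5.91 in line 261, and differed by -1.71 ± 0.41 from wild type (limma adjusted p = 0.0218) and by -3.39 ± 0.46 from labelled transgenic thymus (0.00645). As only 1 of 3 lines detected it, these differences rest on values at background in the other lines. The other Zfp608 probes differed by -0.45 and -0.70 from wild type (limma adjusted p = 0.145 and 0.0409). From labelled transgenic thymus they differed by -0.92 and -1.28 (0.0557 and 0.0531). Myb, a factor of thymocyte progenitors, was at 6.88, 7.41 and 7.10 in lines 3, 175 and 261 and fell against both groups (-1.40 ± 0.25, 0.00843, and -2.45 ± 0.32, 0.00586). Another Myb probe also fell against both (-1.27, limma adjusted p = 0.0138, and -2.10, 0.00999). The remaining Myb probe did not pass against either (-0.57, 0.651, and -1.42, 0.391). Runx1, whose core motif was searched for above, was at 7.67, 8.91 and 8.30 and fell against both (-1.54 ± 0.32, 0.0145, and -1.75, 0.0283), with -0.03 against wild type at its other probe. That other probe was lower in line 3 (5.57) than in lines 175 and 261 (7.15 and 6.92). Bcl11b, a factor of T-cell commitment, was at 12.03, 11.70 and 12.35 and fell against both (-1.26 ± 0.22, 0.0072, and -1.05, 0.0382). Its other probes all fell against wild type (-1.32, -1.90 and -1.25, limma adjusted p = 0.00882, 0.000876 and 0.00492). Against labelled transgenic thymus they differed by -0.30, -1.24 and -1.20 (0.731, 0.0598 and 0.0149). Satb1, which organises the Rag locus in mouse T-cell progenitors, was at 11.92 in line 3 and at 13.33 and 13.38 in lines 175 and 261, with 13.62, 13.74 and 13.65 in wild type. That is its highest probe, which did not pass. Its other probe was at 5.05, 6.58 and 6.42 in lines 3, 175 and 261. The other probe fell against wild type (-3.33, limma adjusted p = 0.00282) and against labelled transgenic thymus (-2.23, 0.0283).

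Genes with a profile most like each member were found by the root mean square difference of centred log2 profiles over the 9 arrays, among 9764 genes. The nearest to Rag1 were Notch3 (0.74), Tm6sf1 (0.76), Cacna1d (0.85), Sytl3 (0.87) and Hivep3 (0.88). Notch3, a receptor of the Notch family, was at 9.46 and 9.06 in the thymus groups and at 4.86, 9.53 and 9.68 in lines 3, 175 and 261. The nearest to Dntt were Trat1 (0.35), Notch1 (0.40), Aqp11 (0.63), Hivep3 (0.73) and Uaca (0.81). Trat1, an adaptor of the T-cell receptor complex, was at 11.67 and 11.86 in the thymus groups and at 4.71, 9.60 and 10.08 in the lines. The nearest to Rag2 were Cited4 (0.25), Adam12 (0.25), Dusp10 (0.33), Tctex1d1 (0.34) and Dusp22 (0.34). All these profiles share the low line 3, and the measure is in log2 units, so a gene with a small range such as Rag2 has nearer neighbours.

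No member was among the genes named above as nearest to another, and those genes were picked by this same measure. The difference was 1.46 between Rag1 and Rag2, 1.47 between Rag1 and Dntt and 2.52 between Rag2 and Dntt. From Rag1, Rag2 ranked 130 and Dntt 136 of 9764. From Dntt, Rag1 ranked 67 and Rag2 6359, and from Rag2, Rag1 ranked 8208 and Dntt 9569. By this measure most genes were thus nearer to Rag2 than the other members were. The measure is not scaled to a gene's range, and that of Rag2 is small. These ranks therefore cannot show whether the members' profiles differ in shape, and in every member line 3 was the lowest of the lines.

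The genes beside the members in the genome were read to see whether whole neighbourhoods moved. Beside the Rag genes, Hsd17b12, Ttc17 and 2810002D19Rik on one side, Traf6, Commd9 and Trim44 on the other and the overlapping Iftap did not pass the test in any of the 3 comparisons. Iftap was detected on 1 array of each group and 2810002D19Rik in 0 lines, so these probes could not show a fall. Groups did not overlap for Ttc17 (-0.56) and Iftap (0.69) in the lines against wild type, as for 47.5% of kept probes. Against labelled transgenic thymus the same held for Ttc17 (-0.57) and Commd9 (0.69), as for 42.5%. Traf6, a signalling ligase, was at 9.28, 9.51 and 9.05 in lines 3, 175 and 261, and Commd9 at 7.76, 8.43 and 7.84, without the drop of Rag1 in line 3. Trim44 was lower in line 3, at 5.28, than in lines 175 and 261, at 6.80 and 5.84, and was detected in 2 of the 3 lines. Beside Dntt, none of Aldh18a1, Tctn3, Blnk, Tm9sf3, Pik3ap1 and Lcor passed in the thymus comparison. Pik3ap1 nevertheless differed there by -1.99 (limma adjusted p = 0.0631) and Blnk by -0.84 (0.322). The thymus groups did not overlap for either gene, as for 19.7% of kept probes. Against wild type the lines had a higher Aldh18a1, which encodes an enzyme of proline synthesis (rose by 1.03, limma adjusted p = 0.0228), and a lower Pik3ap1, which encodes a signalling adaptor (at least 5.80-fold, 4.91e-05). Lcor, a transcriptional corepressor, fell by 1.87 against wild type (0.000837) and fell by 1.79 against labelled transgenic thymus (0.00428). Lcor was at 6.62, 6.43 and 6.65 in lines 3, 175 and 261, so it did not follow the split of Dntt among the lines.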

How the data were processed

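Per the labels' protocols, about 300 ng of total RNA from each sample went onto Illumina MouseWG-6 v2.0 arrays. The authors' deposited non-normalized table holds, per the file headers, the intensity of every probe on every array and its detection p-value. The deposited normalized table holds log2 values, used as an alternative; it equals the series' value table (largest difference 0) and correlates with the values here at 0.999 or more on each array. The submitters' processing notes name BeadStudio and limma; no settings or slide layout were found in these sources.

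Here intensities were background-corrected from the detection p-values, quantile-normalized and log2-transformed with neqc (offset 16) in limma 3.58.1 under R 4.3.3. Probes with a detection p-value under 0.05 on 3 or more of the 9 arrays were kept (19490 of 45281). Each of 3 comparisons was fitted on its own 6 arrays with limma (lmFit, eBayes; two-sided, Benjamini-Hochberg over all kept probes, threshold 0.05) and was tested on simulated data. Groups came from sample titles. Symbols were those of the platform annotation (34885 probes with 1 symbol, 18 with several, 10378 with none; 34807 symbols matched RefSeq by Entrez ID, 0 changed). A listed gene was represented by its kept probe with the highest mean. The members, the 12 gene lists and the tests were chosen with earlier results of these data known. Named were all member probes, Lmo2, Xist and Eif2s3y, up to 4 called genes per list and comparison (2 where none was called), any end-joining gene or regulator, the 5 genes nearest in profile and the 3 nearest measured neighbours on each side. The B-lineage, stage-marker and break-response genes Hes1, Dtx1, Pax5, Cd4, Cd8a, Xrcc5, Nbn and Hmgb1 were named for being detected or not, after their values were seen. Alternatives were the authors' table, no background correction, an offset of 50, other filters, 1 probe per gene, all arrays in 1 fit, the replicate block and leaving out each array. For the thymus comparison, labelled transgenic array 3 alone against wild type was added after the data were seen.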

Additional observations from a re-analysis of the deposited data

How the results depend on the processing

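The Rag1 difference between the thymus groups stayed negative under all 15 alternatives (-1.70 to -1.36), among them the added comparison of labelled transgenic array 3 alone. It passed the threshold with the authors' table, without background correction, with an offset of 50 and with the other filters. The same held for 1 probe per gene and when any 1 labelled transgenic array was left out. It was not past the threshold with all 9 arrays in 1 fit (-1.54, limma adjusted p = 0.843) or with the replicate block (-1.54, 0.0523). With all 9 arrays the error includes the spread of the lines, and the SE was 1.38, against 0.22 in the main fit. Leaving out 1 array gave -1.70 to -1.43, and leaving out any wild-type array ended the call. Rag2 and Dntt there kept their direction under all 15. Neither was called under any alternative given with a test, and labelled transgenic array 3 alone is given without one. In the lines, leaving out 1 array gave -2.80 to 0.38 for Rag1, 0.42 to 1.91 for Rag2 and -4.50 to -1.44 for Dntt against wild type, and -1.26 to 1.92, 1.14 to 2.63 and -4.81 to -1.75 against labelled transgenic thymus; the only calls came without line 3. The near-zero Rag1 difference of the lines from labelled transgenic thymus also changed sign without background correction (0.38), with an offset of 50 (0.14) and without labelled transgenic array 2 (0.0008). The stricter filter left Rag2 untested there. Probes passing the test numbered 547, 5376 and 3181 in the 3 comparisons; with the replicate block they were 191, 3510 and 1384, with 1 probe per gene 2469 and 1579 for the lines against wild type and labelled transgenic thymus, with all 9 arrays in 1 fit 5311 for the latter, and with 1 array left out 120 to 657, 2505 to 5906 and 1141 to 2460. The replicate numbers share only a number (same-number deviations correlated at -0.21 to 0.21 between the thymus groups and at -0.10 to 0.01 for the lines, and no sample correlated best with its own number). The Rag1 call in the thymus comparison was the only call of a member that the block could end. For line 3 against the wild-type mean, the value was -3.66 for Rag1, -0.31 for Rag2 and -5.06 for Dntt without background correction, and -4.76, -0.43 and -6.23 with an offset of 50; Rag2 was then at 0.71 and 1.20 in line 175 and at 0.90 and 1.46 in line 261. None of the 9 line differences changed sign. Of the called list genes, 0 of 9 in the thymus comparison, 20 of 32 in the lines against wild type and 15 of 24 against labelled transgenic thymus passed under every alternative, and 20 of 36 list counts moved by over 1.5 times under some alternative. The cause of these changes was not tested. Rag2 in labelled transgenic thymus and all 3 genes in line 3 were not detected, so they lie at background, where values have no order.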
